A study of Rattus norvegicus with 3 samples.

Results

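Active NIK was set against NIK(KA) in INS-1 832/13 cells, which come from a rat insulinoma, secrete insulin in response to glucose and stand in for pancreatic beta cells in culture. The members of this comparison were the gene models that reached 5 FPKM in the NIK library, the NIK(KA) library or both, which made 10909 of the 34340 gene models listed (31.8%). FPKM divides the reads of a gene model by its length and by the reads of the library. The cells overexpressed NIK (NF-κB-inducing kinase), NIK(KA) or, as a control protein, β-Gal (β-galactosidase). The labels name the overexpressed protein and the cell line and say nothing of vector, dose, time or culture. They do not describe NIK(KA) either; in published work this name stands for NIK with a lysine-to-alanine change that removes its kinase activity. Each condition had 1 library, so no p-value is given, no spread between cultures is known, and every difference is one between 2 libraries. Each library gives 1 value per gene model, so fewer cells with a transcript and less of it per cell cannot be told apart.

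NIK is a kinase of the non-canonical NF-κB pathway. In unstimulated cells it is bound by an adaptor and ubiquitin ligase complex and broken down; when it accumulates, it activates IKKα, which leads to partial cleavage of an NF-κB precursor protein and to entry of RelB-containing dimers into the nucleus. Comparing a kinase with a form that lacks catalysis separates, in principle, what needs the kinase activity from what follows the presence of the protein. Their ratio alone does not show which form departs from the control. The files identify gene models by rat Ensembl IDs, or by serial numbers, and do not pair them with symbols. The reference table gave an Ensembl ID for 0 of its 47357 genes, so 0 IDs were matched to a symbol. Gene models are therefore described by their level and their differences. The gene of NIK, markers of the beta cell and of other cell types, NF-κB targets and any sequence are not reported here. Whether the libraries express what their labels say was thus not checked.

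The read totals behind FPKM were 15095979 for NIK, 14349721 for NIK(KA) and 17457498 for β-Gal, as worked out from the FPKM steps. Whether they include all reads of a library is not known. A count of 0 allows up to 3 reads, and 3 reads on 1000 bases would give an FPKM of 0.199 in NIK, 0.209 in NIK(KA) and 0.172 in β-Gal. The median member had 610 reads in NIK, 586 in NIK(KA) and 678 in β-Gal, and 219 members had fewer than 50 reads in NIK and NIK(KA) together. Reads per gene model were recovered as lower limits, so these medians are lower limits and 219 is an upper limit. Of the gene models outside the comparison, 12949 were at 0 in both NIK and NIK(KA), and 10482 were above 0 in at least 1 of them but below 5 FPKM in each. At the threshold, the higher of the 2 values was 5.00593 FPKM for the lowest member and 4.99642 FPKM for the next gene model below.

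Large differences were mostly on the side of higher levels in NIK. On the scale log2((FPKM + 1) / (FPKM + 1)), 778 members (7.13%) were at least 2-fold higher in NIK and 222 (2.04%) at least 2-fold lower. The lower side made up a smaller part of the total at larger folds. At 4-fold there were 284 higher and 29 lower, at 8-fold 110 higher and 7 lower, and at 32-fold 15 higher and 0 lower. At 1.5-fold the numbers were closer, with 1338 higher and 933 lower. The ratios ran from -4.10 to 6.54 on the log2 scale.

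**Figure D1:**
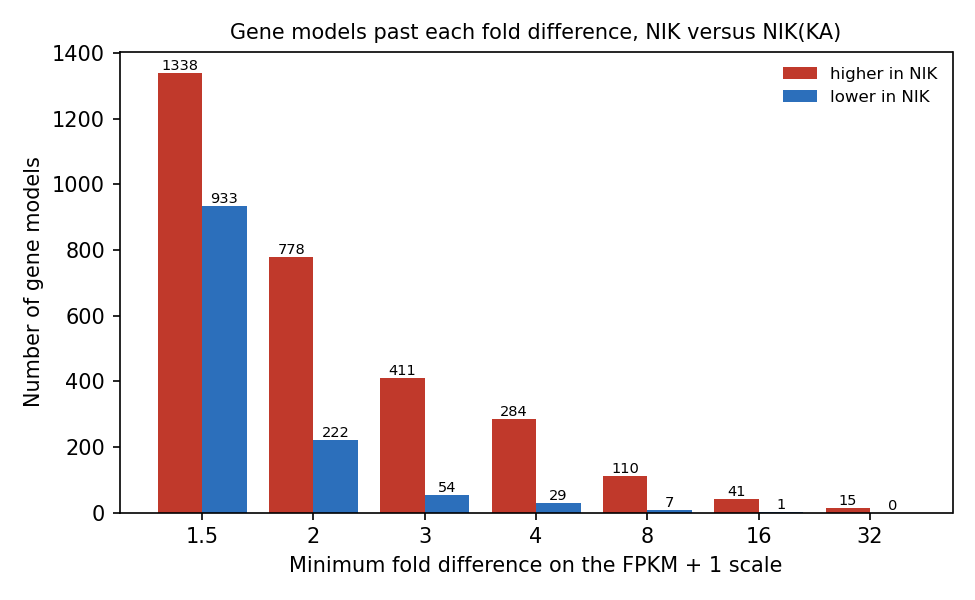
Number of gene models (vertical axis) at or past each minimum fold difference between the NIK and NIK(KA) libraries (horizontal axis), with those higher in NIK in red and those lower in blue. The red bars run 1338, 778, 411, 284, 110, 41 and 15, and the blue bars 933, 222, 54, 29, 7, 1 and 0, so the lower side shrinks faster with the size of the difference.

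Most gene models lay close to each other in the 2 libraries. Of the members, 8638 (79.2%) were within 1.5-fold, and the quartiles of the ratios were -0.32 and 0.17. The levels had a Pearson r of 0.896 and a Spearman rho of 0.901 on the log2(FPKM + 1) scale, across 10909 gene models of 1 library each, which are not independent replicates. The bulk was shifted slightly to the lower side. FPKM is relative to the reads of the library, so this shift does not by itself mean lower absolute amounts. The median log2 ratio was -0.11, and 6816 members (62.5%) were below 0 while 4093 were above. Measured relative to that median, 886 members were at least 2-fold higher and 155 at least 2-fold lower. The share of the higher side among all members past 2-fold was 77.8% on the deposited scale and 85.1% relative to the median.

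**Figure D2:**
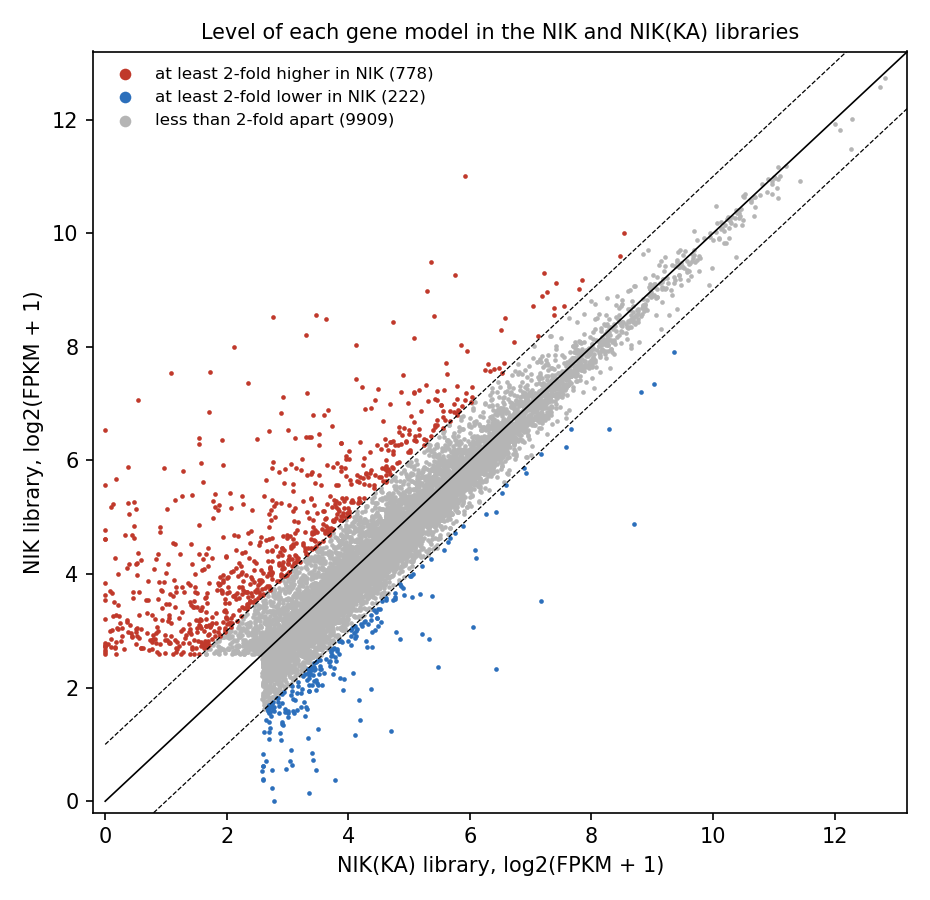
Level of each of the 10909 gene models in the NIK library (vertical axis) and in the NIK(KA) library (horizontal axis), both as log2(FPKM + 1). The solid line marks equal levels and the dashed lines 2-fold; the 778 red points spread far above the upper dashed line, whereas most of the 222 blue points stay near the lower one.

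The gene models higher in NIK were low to moderate in NIK(KA). Their median level was 20.7 FPKM in NIK (quartiles 10.4 and 53.1) and 4.99 FPKM in NIK(KA) (quartiles 1.87 and 13.3). The highest level among them was 2048 FPKM in NIK and 369 FPKM in NIK(KA). At least 100 FPKM was reached by 96 of the 778 in NIK and by 14 in NIK(KA). Together they took 7.08% of the summed FPKM of all gene models in the NIK library and 1.79% in the NIK(KA) library. These levels describe a group that was chosen by the ratio of the same 2 libraries and are no separate support for it.

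The gene models lower in NIK were fewer and mostly of low level in both libraries. Their median level was 3.99 FPKM in NIK (quartiles 2.14 and 7.48) and 10.8 FPKM in NIK(KA) (quartiles 7.51 and 20.9). Only 3 of the 222 reached 100 FPKM in NIK, and 11 did in NIK(KA). They took 0.375% of the summed FPKM in the NIK library and 1.12% in the NIK(KA) library. The median log2 ratio was -1.23 in this group, close to the 2-fold limit of -1, and 1.64 in the higher group.

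Some gene models were near silence in one library. An FPKM of at least 5 in NIK with less than 1 in NIK(KA) was found for 121 members, and the opposite for 19. In NIK(KA) 16 members were at 0, and in NIK 1 was. A member at 5 FPKM or more in 1 library alone tends to differ because of how members were chosen, and 618 members were at that level in NIK alone and 667 in NIK(KA) alone. Of these, 389 were at least 2-fold higher in NIK and 135 at least 2-fold lower. Among the 9624 members at 5 FPKM or more in both libraries, 389 (4.04%) were at least 2-fold higher in NIK and 87 (0.904%) at least 2-fold lower, so the higher side led there too.

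From a mean of 5 FPKM upward the share on the higher side stayed between 4.34% and 7.50%, while the share on the lower side was smaller at higher levels. Among members with a mean of 5 to 10 FPKM over the 2 libraries, 7.50% were at least 2-fold higher in NIK and 3.56% at least 2-fold lower. Between 20 and 50 FPKM the shares were 5.33% and 0.785%. At 100 FPKM and over, 45 of 1036 members (4.34%) were higher and 8 (0.772%) were lower. Below a mean of 5 FPKM the shares were 26.7% and 10.9% of 532 members, but every such member was at 5 FPKM or more in 1 library and below 5 in the other, which favours differences. The median log2 ratio was -0.17 between 5 and 10 FPKM and -0.08 at 100 FPKM and over.

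**Figure D3:**
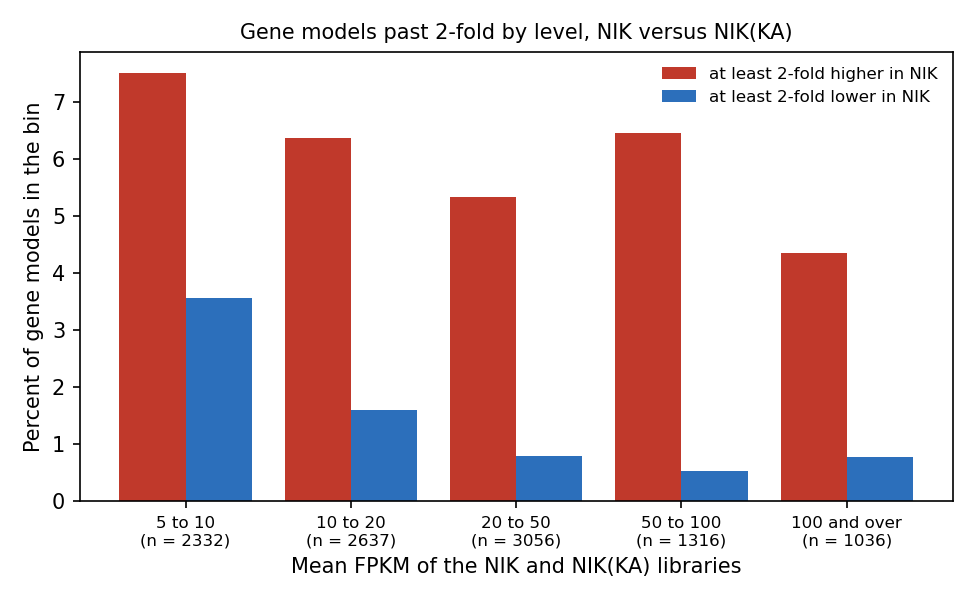
Percent of gene models at least 2-fold higher (red) or lower (blue) in NIK than in NIK(KA), on the vertical axis, by the mean FPKM of both libraries, on the horizontal axis. The red bars lie between 4.34% and 7.50%; the blue bars are 3.56% at 5 to 10 FPKM and below 1% from 20 FPKM upward.

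The most abundant transcripts were mostly at similar levels in both libraries. Of the 100 gene models with the highest FPKM in NIK, 92 were within 1.5-fold, 4 were at least 2-fold higher in NIK and 0 were lower; the largest log2 ratio among them was 5.08. Of the 100 with the highest FPKM in NIK(KA), 96 were within 1.5-fold and 0 were past 2-fold in either direction, with ratios from -0.85 to 0.43. The 1000 highest in NIK included 91 that were at least 2-fold higher in NIK and 3 that were lower. The 1000 highest in NIK(KA) included 14 and 11. The lists were ranked on the libraries they compare, which favours higher values in the library used for the ranking.

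Short gene models were more frequent on the lower side. Lengths were recovered from the FPKM steps as lower limits, so the shares of short gene models are upper limits. Under 300 bases there were 35 of the 222 lower members (15.8%), 34 of the 778 higher members (4.37%) and 437 of all 10909 (4.01%). Within that length class, 7.78% of members were higher and 8.01% lower, whereas between 1000 and 2000 bases the shares were 6.80% and 1.74% and at 5000 bases and over 7.55% and 1.35%. The share of higher members thus changed little with length. Gene models without an Ensembl ID made up 58 of the higher members (7.46%), 25 of the lower (11.3%) and 337 of all (3.09%). The part of length and of the kind of gene model in the lower group was not tested.

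The gene model with the largest ratio was ENSRNOG00000046707, with an FPKM of 91.8 in NIK, 0 in NIK(KA) and 55.3 in β-Gal. NIK and β-Gal were both high and NIK(KA) alone was at 0. By the recovered numbers, which are lower limits, these levels rest on 79 reads in NIK, 0 in NIK(KA) and 55 in β-Gal over 57 bases. With 0 reads in NIK(KA), the fold of NIK over NIK(KA) is given as a lower bound. Against a floor of 3 reads in NIK(KA), NIK was at least 25.03-fold higher, a bound that leaves out the counting error of the NIK reads. With that error included, the 95% counting interval of the ratio started at 19.9 and had no upper end. The FPKM of NIK over that of β-Gal was 1.66 (95% counting interval 1.16 to 2.39).

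The next, ENSRNOG00000002792, had an FPKM of 133 in NIK, 0.455 in NIK(KA) and 3.69 in β-Gal. NIK was far above both other libraries, and NIK(KA) was the lowest. It had 2153 reads in NIK, 7 in NIK(KA) and 69 in β-Gal. NIK exceeded NIK(KA) by an FPKM ratio of 292 (142 to 728), and its ratio to β-Gal was 36.1 (28.4 to 46.6). NIK(KA) was itself below β-Gal, with a ratio of 0.123 (0.0478 to 0.268), so the ratio to NIK(KA) is larger than the ratio to β-Gal.

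On the lower side the first was ENSRNOG00000050827, with an FPKM of 4.02 in NIK (39 reads), 84.8 in NIK(KA) (782 reads) and 39.0 in β-Gal (438 reads). NIK was the lowest and NIK(KA) the highest of the 3 libraries. The FPKM ratio was 0.0474 for NIK to NIK(KA) (0.0335 to 0.0654), 0.103 for NIK to β-Gal (0.0722 to 0.143) and 2.17 for NIK(KA) to β-Gal (1.93 to 2.45).

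ENSRNOG00000006589 followed, with an FPKM of 28.6 in NIK (75 reads), 415 in NIK(KA) (1037 reads) and 33.9 in β-Gal (103 reads). Here NIK and β-Gal were close and NIK(KA) stood above both. NIK over NIK(KA) gave 0.0687 (0.0536 to 0.0870), that of NIK to β-Gal 0.842 (0.617 to 1.14), an interval that includes 1, and that of NIK(KA) to β-Gal 12.2 (9.995 to 15.1). Its recovered length was 174 bases. For each of the 4 gene models named, the counting interval of NIK(KA) to β-Gal left out 1. That of NIK to β-Gal included 1 for ENSRNOG00000006589 alone.

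**Figure D4:**
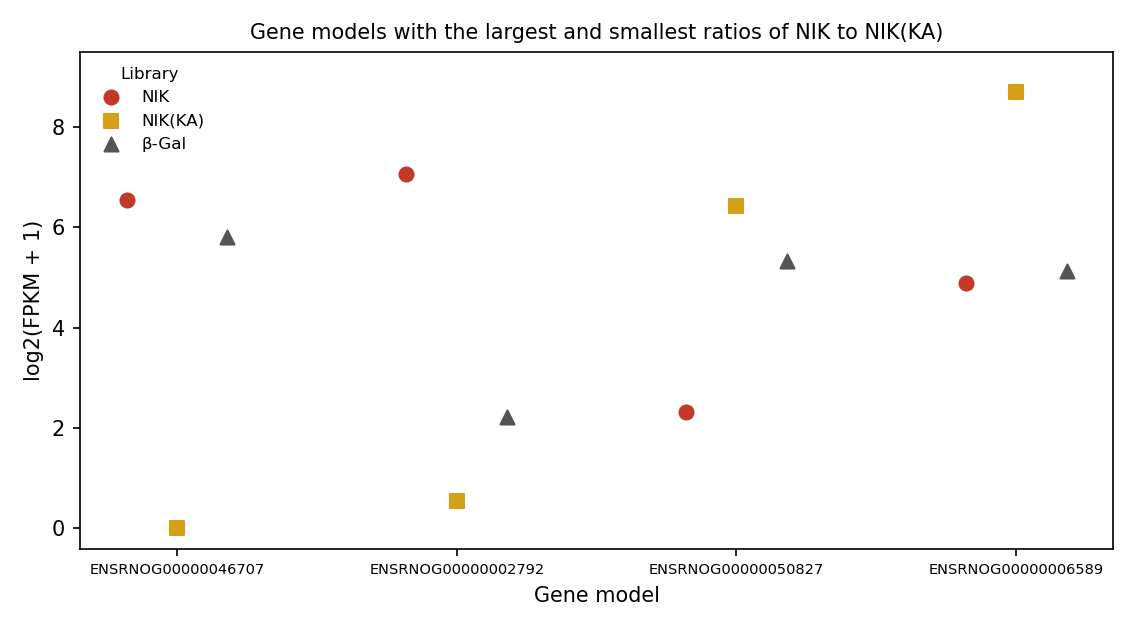
Level of the 4 named gene models, 2 from each end of the ratios of NIK to NIK(KA), as log2(FPKM + 1) on the vertical axis, in the NIK (circles), NIK(KA) (squares) and β-Gal (triangles) libraries. For ENSRNOG00000046707 and ENSRNOG00000006589 NIK lies near β-Gal, whereas for ENSRNOG00000002792 and ENSRNOG00000050827 NIK lies far from it.

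Levels in the β-Gal library were set beside both. These values share libraries with the ratio that chose the groups, so part of their direction is fixed by that choice, and each comparison is given by itself. Over the 778 members on the higher side, the median log2 ratio to β-Gal was 1.44 for NIK (quartiles 0.91 and 2.13) and -0.26 for NIK(KA) (quartiles -0.59 and 0.02). NIK was at least 2-fold above β-Gal for 543 of them (69.8%), beside 6.89% of all members. NIK(KA) was at least 2-fold below β-Gal for 87 (11.2%), beside 1.49% of all members, and within 2-fold for 688 (88.4%), beside 95.5% of all members. At a pseudocount of 1, NIK(KA) can be 2-fold below β-Gal only where β-Gal is at 1 FPKM or more. In β-Gal, 100 of the 778 were under 1 FPKM, so the scale fixes part of this contrast. Of the 778, 389 were at 5 FPKM or more in NIK alone, so the choice of members fixes part of it too. No conclusion on which library lay further from β-Gal is drawn from these counts.

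The lower side was set beside β-Gal in the same way, under the same limit. Over its 222 members, the median log2 ratio to β-Gal was -0.74 for NIK (quartiles -1.42 and -0.13) and 0.59 for NIK(KA) (quartiles -0.20 and 1.37). NIK was at least 2-fold below β-Gal for 90 of them (40.5%), beside 3.27% of all members. NIK(KA) was at least 2-fold above β-Gal for 76 (34.2%), beside 3.04% of all members, and within 2-fold for 138 (62.2%), beside the same 95.5%. Of the 222, 135 were at 5 FPKM or more in NIK(KA) alone, so the choice of members fixes part of these counts. The higher and the lower side were chosen through opposite libraries, so their counts are not compared. Over all members the median ratio to β-Gal was 0.03 for NIK and 0.06 for NIK(KA).

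**Figure D5:**
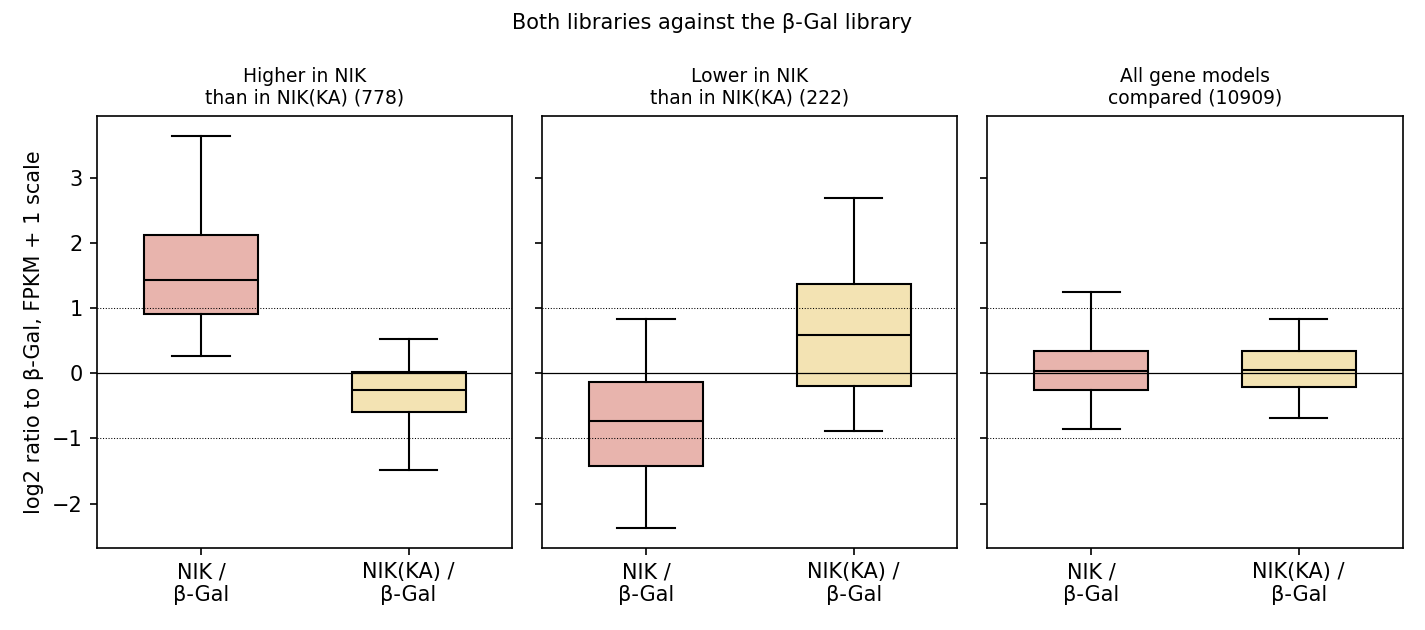
Log2 ratio to the β-Gal library on the FPKM + 1 scale (vertical axis) of NIK (left box) and NIK(KA) (right box) for the 778 members of the higher group, the 222 of the lower group and all 10909. Boxes show the median and quartiles, whiskers the 5th and 95th percentiles over gene models, and dotted lines 2-fold; the higher group has its medians at 1.44 and -0.26, the lower group at -0.74 and 0.59.

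The counting error of each ratio was described by an interval. The exact 95% counting interval of the FPKM ratio of NIK to NIK(KA) left out 1 for 769 of the 778 higher members (98.8%) and for 212 of the 222 lower members (95.5%), and for 69.1% of all members. The same reads chose the groups, so the first 2 shares are a description. Spread between cultures is no part of such intervals, and several reads can stem from 1 molecule. The overexpressed protein, the culture and the library preparation cannot be told apart with 1 library of each.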

How the data were processed

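RNA from INS-1 832/13 cells was sequenced in 3 libraries, 1 per overexpressed protein, grouped by sample title. The authors deposited FPKM per gene model. Per the submitters' processing notes, TopHat2, HTSeq 0.6.1 and the mouse build GRCm38 were involved, whereas the rows carry rat Ensembl IDs, so no coordinates are given. Strandedness and preparation of the libraries were not given in the sources used here, and overlapping, antisense and near-identical genes cannot be separated.

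Ratios are log2 of FPKM with a pseudocount of 1, which understates the change of low genes. The minimum was 5 FPKM in either library and the threshold 2-fold. Library totals, lengths and reads were recovered from FPKM steps as the lowest whole numbers. All 22026 gene models above 0 came out whole within 1e-06 reads at lengths up to 100000 bases, and the reads added up to 95.9%, 95.9% and 96.1% of the totals of NIK, NIK(KA) and β-Gal, so reads and lengths are lower limits. Intervals are exact Clopper-Pearson intervals (95%) of the split of reads between 2 libraries. They use these lower limits, so they can be wider than the full reads would give. The procedure was also run on simulated reads, drawn on the recovered lengths with counting error only. Such data cannot show how far the real reads and lengths fall below their full values, nor how cultures differ. Python 3.11.15, numpy 2.4.6, pandas 2.3.3 and scipy 1.17.1 were used.

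Members, lists and rules were chosen with earlier results of these data known. With no symbols, the 12 gene lists and cell type markers were not run, and the rule allowed 2 Ensembl IDs from each end of the ratios to be named. Alternatives were other pseudocounts, minimum levels, fold thresholds and scalings.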

Additional observations from a re-analysis of the deposited data

How the results depend on the processing

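Each of the 11 alternatives gave more gene models higher than lower in NIK (58.9% to 90.1% of those past the threshold). Numbers are those higher and lower in NIK than in NIK(KA), reported as 778 and 222. A pseudocount of 5 gave 516 and 57, a minimum of 20 FPKM 397 and 60, a threshold of 1.5-fold 1338 and 933 and one of 3-fold 411 and 54. A minimum of 1 FPKM, and no minimum, both gave 1119 and 556, since a 2-fold difference with a pseudocount of 1 needs at least 1 FPKM. The 4351 gene models between 1 and 5 FPKM were divided almost evenly, with 341 higher and 334 lower. The lean to the higher side in these 2 settings thus came from the members at 5 FPKM or more. The other settings stayed within 1.5 times.

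The median log2 ratio (-0.11) was -0.095 with a pseudocount of 5, -0.130 with a minimum of 1 FPKM, -0.096 with one of 20, -0.089 without one, -0.099 with equal FPKM sums and 0 by construction with the median set to 0. The share of higher members with NIK(KA) within the threshold of β-Gal (88.4%) was 81.1% and 92.6% with pseudocounts of 0.1 and 5, and 74.96% and 92.0% with thresholds of 1.5-fold and 3-fold. The share for lower members (62.2%) was 54.4% with a pseudocount of 5, 53.6% with a minimum of 1 FPKM or none, and 52.5% and 50% with thresholds of 1.5-fold and 3-fold. The alternatives for these shares were chosen after seeing the data. For the 3 gene models given by ID whose counting interval has an upper end, 15 of 18 recomputed ratios moved by at most 0.5 of its width on the log2 scale and 3 by more. The ratio of ENSRNOG00000046707 was 9.84 and 4.28 with pseudocounts of 0.1 and 5, against 6.54 as reported. Each of the 24 recomputed ratios kept its direction. For the pseudocounts this was fixed in advance, since adding the same value to both libraries cannot reverse a ratio. The scalings shifted these ratios by far less than their size.

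The alternatives for gene lists were not run. No paired analysis was possible because each group holds 1 library. Depth limits gene models with few reads in either library.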
